A study of Mus musculus with 6 samples.

Results

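Kinesins are motor proteins that bind microtubules and use ATP to move along them or to take them apart. In a dividing T cell one set of them builds the spindle, moves the chromosomes and completes cytokinesis, while another set carries vesicles, mitochondria and other cargo through the cytoplasm in any phase of the cell cycle. The genes described here are all entries of the deposited expression table whose symbol has the form of a kinesin name (Kif or Kifc, a number and an optional letter). This rule gave 42 of 55291 distinct symbols, and it used names only, not values. They were divided by textbook function into 13 mitotic kinesins, 16 transport kinesins and 13 others, the last holding cilium, developmental, microtubule-end and less well placed members.

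The cells were CD4+ T cells from the spleen of naive wild-type C57BL/6 mice, the helper lineage of T lymphocytes. They were labelled with CFSE, a dye diluted at each division, and stimulated in RPMI medium through CD3 and CD28 with 200 U of IL-2. For 48 h the medium also held either itaconate at 5 mM, an acid derived from the TCA cycle that macrophages secrete when activated, or NaCl at 5 mM as the control, with 3 RNA-seq libraries per treatment. The comparison asks how the kinesin transcripts differed between the itaconate and the NaCl cultures. In the table the control libraries are coded NAC, a code that no source used here explains. It was read as NaCl, the only treatment besides itaconate that the labels name. All control values below rest on that reading. Whether the libraries came from separate mice or separate cultures is not stated in the labels, and the p-values therefore reflect only the spread among these 6 samples, part or all of which may be technical.

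The libraries held 20074299 to 24144999 estimated reads, with 16762 to 17604 entries above 0. The CD4+ T cell label could be checked against 7 markers (Cd3d, Cd3e, Cd3g, Cd4, Cd5, Cd28 and Trac), all of which were tested and which summed to a normalized estimated count of 49085 to 59555 per library. Cd8a and Cd8b1 summed to 308 to 408, 5 B cell markers to 173 to 304, 7 myeloid markers to 29.1 to 147 and 3 NK cell markers to 9.67 to 24.6. The defining myeloid genes Lyz2, Csf1r, Cd14 and Adgre1 stayed below 10 in every library, whereas Itgam rose from values of 11.2, 7.03 and 24.5 with NaCl to 39.3, 70.1 and 67.7 with itaconate (log2 fold change 2.10, adjusted p = 0.00524 in limma). The remaining myeloid markers, Fcgr3 and Itgax, did not pass the test (log2 fold change -0.11 and -0.13). Their highest values were 33.3 and 32.2, both in itaconate replicate 2. The part of such cells in the kinesin values was not tested.

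With itaconate all 13 mitotic kinesins rose, whereas the transport kinesins went in both directions. Of the 42 kinesins, 31 reached the test's minimum, a mean of 10 across the libraries, which took in 13 of 13 mitotic, 13 of 16 transport and 5 of 13 other members. Kinesins risen numbered 20 (13 mitotic, 5 transport and 2 other), those fallen 2 (both transport), and 9 did not pass the test (limma on log2 of value plus 1, Benjamini-Hochberg adjusted p under 0.05 over all 13180 genes tested). Over all genes tested, 18.2% rose and 17.8% fell. Among the kinesins that did not pass was Kif2a, which acts at spindle poles and in interphase and was placed with the others. The kinesins risen with at least a 2-fold change on that scale were 13, of which 10 were mitotic, against 4.45% of all genes tested. The median log2 fold change was 1.12 for the mitotic kinesins, 0.27 for the transport kinesins, 0.24 for the other kinesins and -0.00088 for all genes tested. The transport median was 0.124 after removal of the GC and length trends and 0.155 among genes with a mean of at least 100. In RNA from whole cultures, a changed share of cells of a type or cycle phase and changed RNA per cell cannot be told apart.

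**Figure D1:**
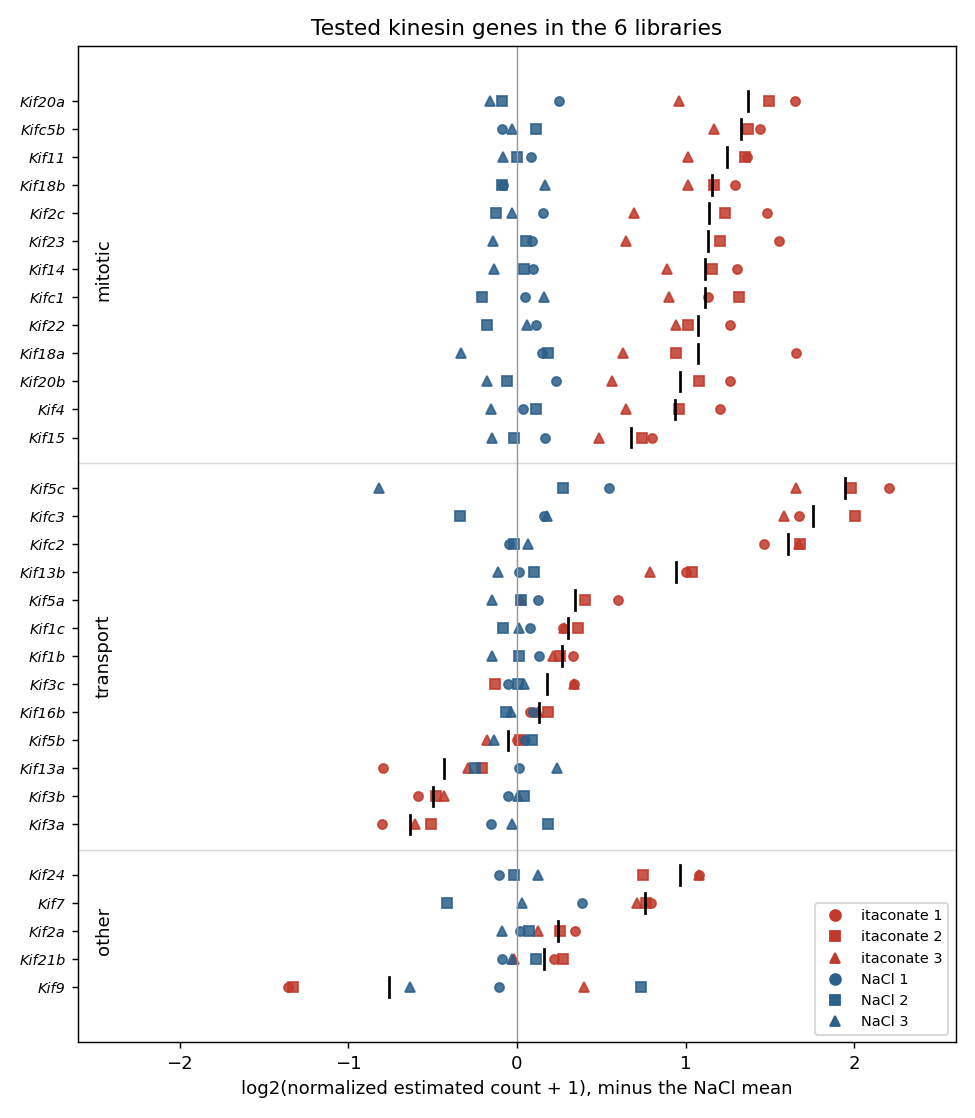
Each row is 1 of the 31 tested kinesins, grouped by class, and the horizontal axis is log2 of the normalized estimated count plus 1, minus the mean of the 3 NaCl libraries. Red and blue symbols are the single itaconate and NaCl libraries (circle, square and triangle for replicates 1, 2 and 3) and the black bar is the itaconate mean. All 13 mitotic kinesins have the 3 red symbols to the right of the blue ones, with itaconate replicate 3 leftmost of the red, while the transport kinesins run from Kif5c at 1.95 to Kif3a at -0.64.

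The promoter sequences are shown first because the mitotic kinesins shared a motif there that the name rule did not use. Promoters of genes expressed in the G2 and M phases often hold the cell cycle genes homology region, TTTGAA, which is bound by LIN54 of the MuvB complexes, and CCAAT boxes, which are bound by NF-Y. The table of RefSeq promoters (GRCm38.p6, the same assembly as mm10) held a window of 300 bases, 250 before to 50 after the annotated start, for 24 of the 31 tested kinesins. Both motifs were searched on both strands, so that TTCAAA and ATTGG are their reverse-strand forms, and overlapping matches were allowed. The stretches below run from 80 bases before to 30 after the RefSeq start, 5′ to 3′ on the strand of the gene, with both motifs in capitals.

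The first 4 stretches are mitotic kinesins (Kif20b and Kif23 belong to the same subfamily, kinesin-6), chosen after their positions were seen because the TTTGAA match lies close to the start and the RefSeq start lies within 25 bases of the gene start in GENCODE. They are Kif11 (chr19:37376302-37376411, plus strand), Kif18b (chr11:102925095-102925204, minus strand), Kif20b (chr19:34922278-34922387, plus strand) and Kif23 (chr9:61946770-61946879, minus strand).
Kif11: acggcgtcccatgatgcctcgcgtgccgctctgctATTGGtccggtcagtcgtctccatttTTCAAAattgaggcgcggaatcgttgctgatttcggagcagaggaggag
Kif18b: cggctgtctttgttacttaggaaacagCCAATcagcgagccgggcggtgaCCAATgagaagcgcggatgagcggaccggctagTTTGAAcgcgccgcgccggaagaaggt
Kif20b: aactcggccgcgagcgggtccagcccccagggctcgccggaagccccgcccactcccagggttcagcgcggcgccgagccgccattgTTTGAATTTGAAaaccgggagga
Kif23: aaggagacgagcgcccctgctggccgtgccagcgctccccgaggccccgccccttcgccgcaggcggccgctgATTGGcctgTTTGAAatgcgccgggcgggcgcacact
Kif11 and Kif23 each carry 1 CCAAT box before the TTTGAA match, Kif18b carries a pair of them, and Kif20b has a tandem TTTGAA with no CCAAT box. For contrast, the next 4 are Kif18a (chr2:109280658-109280767, plus strand), the mitotic kinesin without a TTTGAA match, and the transport kinesins Kif3a (chr11:53567289-53567398, plus strand), Kif3b (chr2:153291336-153291445, plus strand) and Kif5c (chr2:49619206-49619315, plus strand).
Kif18a: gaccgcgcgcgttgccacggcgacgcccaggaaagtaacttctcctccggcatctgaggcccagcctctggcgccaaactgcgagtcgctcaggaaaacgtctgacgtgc
Kif3a: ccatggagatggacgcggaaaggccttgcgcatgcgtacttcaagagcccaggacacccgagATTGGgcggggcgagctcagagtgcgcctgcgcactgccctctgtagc
Kif3b: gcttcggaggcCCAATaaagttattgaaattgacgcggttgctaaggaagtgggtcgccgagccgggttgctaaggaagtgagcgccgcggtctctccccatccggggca
Kif5c: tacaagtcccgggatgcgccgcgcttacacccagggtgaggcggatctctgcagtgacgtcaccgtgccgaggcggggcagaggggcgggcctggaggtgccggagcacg
Kif3a and Kif3b, which fell, each hold 1 CCAAT box and no TTTGAA, and Kif5c, which rose, holds neither in this stretch.

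Over the whole windows, TTTGAA was found in 11 of 12 mitotic kinesins, in 0 of 9 transport windows (8 genes) and in 0 of 6 other windows (4 genes). It occurred in 12.2% of the 12458 windows of tested genes, in 13.2% of the windows of genes that rose and in 17.9% of all 32851 windows. The first base of a match lay within 30 bases of the start in 9 of the 12 mitotic windows, against 1.98% of the windows of tested genes and 4.05% of those of genes that rose. This limit of 30 bases was chosen after the positions were seen, and the Kifc5b match began at position 30, its edge. The windows of the near copies Kifc1 and Kifc5b are much alike in sequence. They are counted separately in these numbers and in those of CCAAT boxes. The exceptions among the mitotic kinesins with a match were Kif14 and Kif2c, whose matches began at positions -228 and -103 relative to the RefSeq start. In both of these genes the RefSeq start lies inside the GENCODE gene, by 1505 bases for Kif14 and 3867 bases for Kif2c, so their windows may not cover the first start. The same holds for Kif4, counted among the 9, whose RefSeq start lies 328 bases inside.

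CCAAT boxes occurred in windows of all 3 classes. They were found in 8 of 12 mitotic, 4 of 9 transport and 1 of 6 other windows, against 38.1% of the windows of tested genes. Both motifs were present in 8 of 12 mitotic windows (Kif11, Kif14, Kif18b, Kif22, Kif23, Kif4, Kifc1 and Kifc5b), in 0 of 9 transport windows and in 5.13% of those of tested genes. Kif24, a centriole-associated member that rose, held 4 CCAAT boxes and no TTTGAA. A match of letters is a description of the window and does not show that a factor binds there, and the absence of a match covers only this window. No window was given for Kif13b, Kif5a, Kif5b, Kif20a, Kif21b, Kifc2 and Kifc3.

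**Figure D2:**
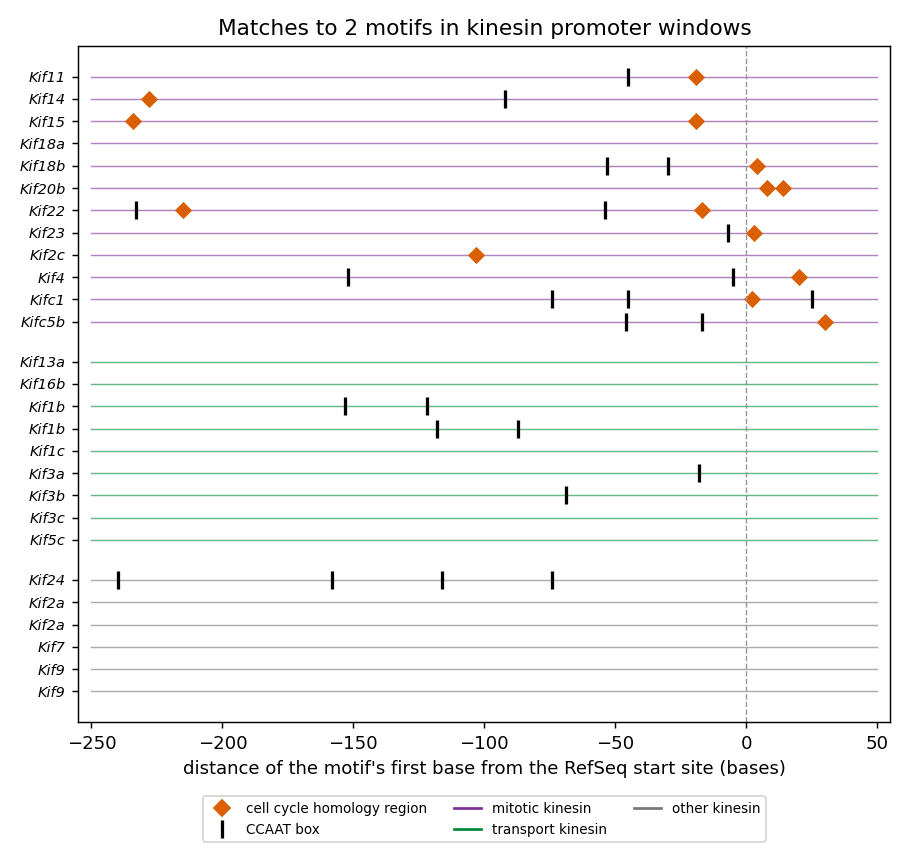
Each line is the 300-base RefSeq promoter window of a tested kinesin, coloured by class, with distance from the annotated start in bases on the horizontal axis. Orange diamonds mark the first base of a cell cycle genes homology region and black ticks that of a CCAAT box, on either strand. Diamonds appear on 11 of the 12 mitotic lines, 9 of them within 30 bases of the start, and on none of the transport or other lines.

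Among the motors that build and hold the bipolar spindle, Kif11 had the highest level. Kif11 is the tetrameric kinesin-5 that slides antiparallel microtubules apart to separate the spindle poles. Its normalized estimated counts were 9100, 9037 and 7140 in itaconate replicates 1, 2 and 3 and 3747, 3542 and 3337 in NaCl replicates 1, 2 and 3. The lowest itaconate library lay well above the highest NaCl library, and the log2 fold change was 1.24 ± 0.10 (SE; adjusted p = 4.33e-06 in limma). Kif15, the kinesin-12 that can keep the spindle bipolar when Kif11 is blocked, had values of 2169, 2081 and 1741 with itaconate and 1394, 1230 and 1124 with NaCl. Its groups did not overlap either, but its log2 fold change of 0.68 ± 0.11 was the smallest of the 13 mitotic kinesins (adjusted p = 0.000664 in limma).

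The minus-end directed kinesin-14 motors focus the spindle poles and cross-link spindle microtubules. Kifc1 had values of 2828, 3216 and 2415 with itaconate and 1335, 1119 and 1442 with NaCl, and Kifc5b had 1480, 1409 and 1227 against 513, 590 and 533. Neither gene's groups overlapped, and the log2 fold changes were 1.12 ± 0.12 for Kifc1 and 1.33 ± 0.11 for Kifc5b (adjusted p = 3.21e-05 and 5.89e-06 in limma). These 2 genes are near copies, with 58.8% of the 31-base words of the Kifc1 transcript also present in Kifc5b and 52.6% of those of Kifc5b in Kifc1, so RSEM may have divided reads between them and each value is uncertain. With the values of both summed into 1 gene, the log2 fold change was 1.18. The ratio of Kifc5b to Kifc1 within a library overlapped between the treatments.

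The kinesins that move chromosomes and trim microtubule ends also rose. Kif22, a chromokinesin that pushes chromosome arms away from the poles, had values of 2450, 2060 and 1960 with itaconate and 1103, 902 and 1060 with NaCl (log2 fold change 1.08 ± 0.11). Kif4, the chromokinesin that organizes the central spindle with Prc1, had 2256, 1906 and 1530 against 1005, 1059 and 881 (0.94 ± 0.13). In both genes every itaconate library lay above every NaCl library, and itaconate replicate 1 was highest. Exons of Pdzd11 on the opposite strand cover 15.1% of the exon bases of Kif4, and because the strand setting is not given in the sources used here their reads cannot be told apart. Pdzd11 itself fell (log2 fold change -0.83). Kif2c, the kinesin-13 that depolymerizes microtubules at centromeres and corrects faulty attachments, had values of 1697, 1428 and 980 against 675, 556 and 595 (1.14 ± 0.17).

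The kinesin-8 motors Kif18a and Kif18b limit the length of spindle and astral microtubules. Kif18b had values of 2048, 1878 and 1692 with itaconate and 791, 788 and 939 with NaCl, a log2 fold change of 1.16 ± 0.11. Kif18a had 1042, 636 and 511 against 366, 377 and 262, and at 1.07 ± 0.23 it had the largest standard error and the largest adjusted p of the mitotic kinesins (0.00296 in limma). The itaconate libraries of Kif18a were far apart, with replicate 1 well above the other 2, yet the lowest of them still exceeded the highest NaCl library.

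The motors of the central spindle and midbody completed the mitotic class. Kif20a, which brings the chromosomal passenger complex to the central spindle, had values of 2140, 1922 and 1326 with itaconate and 810, 640 and 609 with NaCl. Its log2 fold change of 1.37 ± 0.17 was the largest of the mitotic kinesins (adjusted p = 6.52e-05 in limma). Exons of Cdc23 on the other strand cover 29.3% of its exon bases, and Cdc23 itself had a log2 fold change of 0.28, which did not pass the test (adjusted p = 0.0538 in limma). Kif23, the motor subunit of centralspindlin, had values of 2533, 1987 and 1353 against 918, 895 and 782 (1.13 ± 0.18). Kif14, which recruits citron kinase to the midbody, had 1343, 1212 and 1009 against 580, 561 and 494 (1.12 ± 0.13). Kif20b, which acts late in cytokinesis, had 2039, 1797 and 1253 against 997, 817 and 752 (0.97 ± 0.16). In all 4 genes the treatments were separate, with itaconate replicate 1 the highest library and replicate 3 the lowest of its treatment.

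A difference between the itaconate libraries ran through the class. Itaconate replicate 3 was the lowest itaconate library for 13 of 13 mitotic kinesins, compared with 57.6% of all genes that rose and 36.1% of all genes tested. The median of the mitotic kinesins relative to the NaCl mean was 1.303, 1.17 and 0.89 on the log2 scale in itaconate replicates 1, 2 and 3, and 0.094, -0.017 and -0.14 in NaCl replicates 1, 2 and 3. The same libraries gave 0.33, 0.26 and 0.21 and 0.049, 0.013 and -0.031 for the transport kinesins. Without itaconate replicate 3 all 13 mitotic kinesins still rose and their median was 1.23, and without itaconate replicate 1 all 13 rose and the median was 0.98.

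The partners of the mitotic kinesins rose as well. Of 16 genes listed as working with these motors, all tested, 16 rose, against 18.2% of all genes tested. Their median log2 fold change was 1.05. Itaconate replicate 3 was again the lowest itaconate library for 16 of 16, against 57.6% of all genes that rose and 36.1% of all genes tested. Cit, the citron kinase that Kif14 recruits, rose by 1.34, and of the chromosomal passenger complex that Kif20a carries, Birc5 rose by 1.10, Incenp by 1.10 and Aurkb by 1.00 on the log2 scale. Racgap1, the other subunit of centralspindlin, rose by 0.93, Prc1, which Kif4 carries to microtubule plus ends, by 1.12, and Tpx2, which binds Kif11 on the spindle, by 0.75. Cenpe, a kinetochore kinesin whose name falls outside the rule, had values of 3736, 3061 and 1940 against 1674, 1452 and 991, and rose by 1.07 ± 0.22 (adjusted p = 0.00241 in limma). Stard9, a further kinesin outside the name rule, did not pass the test (log2 fold change -0.09).

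Of the 21 regulators of G2/M promoters, 10 rose and 4 fell, with a median log2 fold change of 0.30, against 18.2% risen and 17.8% fallen over all genes tested. Without NaCl replicate 3 the counts were 6 risen and 2 fallen, and 2 fell also without itaconate replicate 2 and without NaCl replicate 2. Foxm1, which activates late cell cycle genes from the homology region, rose by 1.02, E2f2 by 0.90 and E2f8, an E2F repressor, by 0.70 on the log2 scale. The 4 that fell included Nfyb (-0.67), Nfya (-0.41) and Nfyc (-0.40), the NF-Y subunits that bind CCAAT. For Nfya the groups overlapped (adjusted p = 0.0405 in limma). The other was E2f4 (-0.46), the E2F of repressor complexes in resting cells. Of these 4, E2f4, Nfya and Nfyc were named after their values were seen. Lin54, the subunit that contacts TTTGAA, did not pass the test (0.08). The other regulators that rose were E2f7 (1.02), Mybl2 (0.66), Lin52 (0.59), Rbl2 (0.53), Lin9 (0.46), Rbl1 (0.30) and Tfdp1 (0.30). They were named after their values were seen, and the groups of Lin52 overlapped.

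The transport kinesins had no common direction. Every itaconate library lay above every NaCl library in 6 of the 13 tested, below in 2, and the groups overlapped in 5. Over all genes tested, 24.2% had every itaconate library above every NaCl library and 24.2% had every one below. For the mitotic class the corresponding count above was 13 of 13.

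Kinesin-1 is the conventional cargo motor, a dimer of Kif5a, Kif5b or Kif5c heavy chains bound by light chains. Kif5b, the form found in most tissues, had values of 3873, 3929 and 3422 with itaconate and 4010, 4120 and 3528 with NaCl. The groups overlapped, and the log2 fold change of -0.05 did not pass the test (adjusted p = 0.686 in limma). Kif5c, better known from neurons, had values of 118, 101 and 80.1 against 36.7, 30.1 and 13.6. Its groups did not overlap, and its log2 fold change of 1.95 ± 0.38 was the largest of all 31 tested kinesins (adjusted p = 0.00182 in limma), but at a low level. Kif5a, the other form known from neurons, had a log2 fold change of 0.34 and did not pass.

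Kinesin-2 motors carry cargo in cilia and in the cytoplasm, as a heterotrimer of Kif3a, a Kif3b or Kif3c partner and the adaptor Kifap3. Kif3a had values of 440, 538 and 503 with itaconate and 688, 869 and 749 with NaCl, and Kif3b had 2146, 2310 and 2394 against 3117, 3327 and 3241. In both, every itaconate library lay below every NaCl library, and they were the only tested kinesins for which this held. Kif3a fell by 0.64 ± 0.13 and Kif3b fell by 0.50 ± 0.085 on the log2 scale (adjusted p = 0.00247 and 0.000695 in limma). Kif3c did not pass (log2 fold change 0.18), and 35.3% of its exon bases lie opposite 1110002L01Rik, which fell (-1.69). Kifap3 had a log2 fold change of -0.36 and did not pass, its values of 165, 142 and 226 overlapping the NaCl values of 228, 248 and 199.

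The kinesin-3 motors carry vesicles, endosomes and mitochondria. Kif13b, which carries membrane proteins and signalling cargo, had values of 918, 941 and 790 with itaconate and 461, 492 and 423 with NaCl, and rose by 0.94 ± 0.12. Kif1c, a fast carrier of dense vesicles and integrins, had 2060, 2185 and 2066 against 1793, 1604 and 1713. Its groups were separate but close, with a log2 fold change of 0.31 ± 0.089 (adjusted p = 0.0176 in limma), and the call was lost without itaconate replicate 2 (adjusted p = 0.0788), without NaCl replicate 2 (0.0701), without the intensity trend (0.0506) and after removal of the GC and length trends (0.271, where the log2 fold change was 0.12). Kif1b, a carrier of mitochondria and synaptic vesicle precursors, did not pass (log2 fold change 0.27, adjusted p = 0.0679 in limma), though its libraries did not overlap. Kif13a, an endosome motor and the nearest relative of Kif13b, had a log2 fold change of -0.43 and Kif16b, which moves early endosomes, one of 0.13, and neither passed.

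The C-terminal motors Kifc2 and Kifc3, which are not part of the spindle set, rose from low levels. Kifc2 had values of 162, 188 and 187 with itaconate and 56.1, 57.3 and 60.8 with NaCl, and Kifc3, which acts at adherens junctions and on membranes, had 125, 157 and 117 against 43.0, 30.1 and 43.6. The lowest itaconate library lay far above the highest NaCl library in both, and the log2 fold changes were 1.60 ± 0.21 and 1.75 ± 0.27 (adjusted p = 0.000129 and 0.000372 in limma). Exons of Cyhr1 lie opposite 4.15% of the exon bases of Kifc2, and Cyhr1 rose (0.43).

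Of the 20 symbols listed as partners of transport kinesins, 17 were tested. The listed symbol Kif1bp, which was not in the table, is an older name of Kifbp, which was tested. Of the 17, 5 rose and 1 fell, while 11 missed the threshold, against 18.2% risen and 17.8% fallen over all genes tested. Their median log2 fold change was 0.019. Without NaCl replicate 2, and after removal of the GC and length trends, 3 rose. The kinesin-1 light chains Klc1, Klc2 and Klc3, which bind cargo, rose by 0.65, 0.44 and 0.71 on the log2 scale, while Klc4 did not pass (0.21). Trak1, the adaptor that links kinesin-1 to mitochondria, rose by 0.34. Mapk8ip1, a JNK scaffold carried by kinesin-1, rose by 1.17, and Fez2 fell by 0.50; these were named after their values were seen. Without itaconate replicate 1, without itaconate replicate 2, without NaCl replicate 2 and without NaCl replicate 3, 0 partners fell, and without itaconate replicate 3 the count was 2.

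Dynein, with its activator dynactin, moves toward the minus end against most kinesins. Of 26 listed genes 23 were tested: 4 rose and 4 fell, while 15 missed the threshold, and the median was 0.040. The shares over all genes tested, 18.2% risen and 17.8% fallen, are near these counts. Nde1, which brings dynein to kinetochores and the nuclear envelope, rose by 0.56, and Spdl1, the kinetochore adaptor of dynein, by 0.73. The light chain gene Dynll1 fell by 0.90, and the dynactin gene Actr10 fell by 0.39. Actr1a (0.33) and Dynlt1a (0.64) were the other genes that rose, and Dctn6 (-0.31) and Dynlrb1 (-0.27) the others that fell; these 4 were named after their values were seen. The heavy chain Dync1h1 did not pass (0.23, adjusted p = 0.0559 in limma). Without the intensity trend 2 rose and 2 fell, and 2 fell also without itaconate replicate 1, without itaconate replicate 2 and without NaCl replicate 1.

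Among the other kinesins, Kif24, a kinesin-13 that controls centriole capping and cilium formation, had values of 431, 342 and 430 with itaconate and 189, 201 and 221 with NaCl, and rose by 0.97 ± 0.16. Kif7, a regulator of Hedgehog signalling at the cilium tip, had 306, 300 and 288 against 230, 132 and 180, and rose by 0.76 ± 0.20 (adjusted p = 0.0108 in limma). The NaCl libraries of Kif7 were far apart but did not reach the itaconate libraries, and the call was lost after removal of the GC and length trends (adjusted p = 0.0638). Exons of 9330171B17Rik, which was close to 0, lie opposite 19.1% of the exon bases of Kif7. Those of Ticrr, which rose from a mean of 1098 to 1881 (log2 fold change 0.77, adjusted p = 0.000185 in limma), lie opposite 1.11% of them, and the reads of these genes cannot be told apart. Kif2a, a kinesin-13 that depolymerizes microtubules at poles and in interphase, had 1586, 1490 and 1366 against 1265, 1313 and 1177, and did not pass (log2 fold change 0.24, adjusted p = 0.0751 in limma) although the groups were separate. Exons of Dimt1 lie opposite 19.2% of its exon bases (-0.30, not passed).

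Kif21b, a kinesin-4 that limits microtubule growth and is known from lymphocytes and neurons, had the highest normalized estimated counts of any kinesin. They were 10805, 11209 and 9179 with itaconate and 8727, 10059 and 9108 with NaCl. The groups overlapped, and the log2 fold change of 0.16 did not pass (adjusted p = 0.218 in limma). Quantile normalization gave 0.33 and a call (adjusted p = 0.0145), whereas removal of the GC and length trends turned the direction to -0.10 with no call (adjusted p = 0.392). Kif9, a motile cilium motor, had values of 8.42, 8.59 and 30.8 against 21.4, 39.2 and 14.5, whose spread within each treatment was larger than the difference between them.

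The kinesins below the test's minimum were mostly known from neurons, cilia or embryos. Those with a mean of 1 to 10 were Kif1a, Kif17, Kif19a, Kif26a, Kif26b and Kif27, and their highest single value was 11.1. Kif1a had values of 10.3, 10.7 and 7.18 with itaconate and 1.02, 11.1 and 0 with NaCl. Kif26a was listed at 0 in the 3 itaconate libraries and at 4.08, 3.01 and 2.72 in NaCl, and Kif26b at 4.94, 2.15 and 5.13 with itaconate and at 0 in the 3 NaCl libraries. These are values of a few reads and were not tested. Kif21a had a mean of 0.17, and Kif2b, Kif6, Kif12 and Kif28 were listed at 0 in all 6 libraries.

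Levels of different genes were compared per kb of the longest annotated transcript (GENCODE release M21). In the NaCl libraries Kif21b stood first with a normalized estimated count of 1005 ± 74.1 per kb (SD, n = 3), followed by Kif11 with 735 ± 42.6, Kif5b with 644 ± 52.2, Kif3b with 573 ± 18.8 and Kifc1 with 551 ± 69.7. Kif21b and Kif11 were each separate from the gene below, while Kif5b overlapped Kif3b and Kif3b overlapped Kifc1. With itaconate the order was Kif11 with 1748 ± 231, Kifc1 with 1196 ± 170, Kif21b with 1124 ± 116, Kif5b with 620 ± 46.1 and Kif22 with 601 ± 72.1. Kif11 was separate from Kifc1, but Kifc1 overlapped Kif21b and Kif5b overlapped Kif22. Kif3b stood in place 12 with itaconate, at 405 ± 22.3 per kb, where it overlapped its neighbours Kif15 and Kif4. At the bottom, Kif5c rose from 3.91 ± 1.74 to 14.5 ± 2.76 per kb and remained far below Kif5b.

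**Figure D3:**
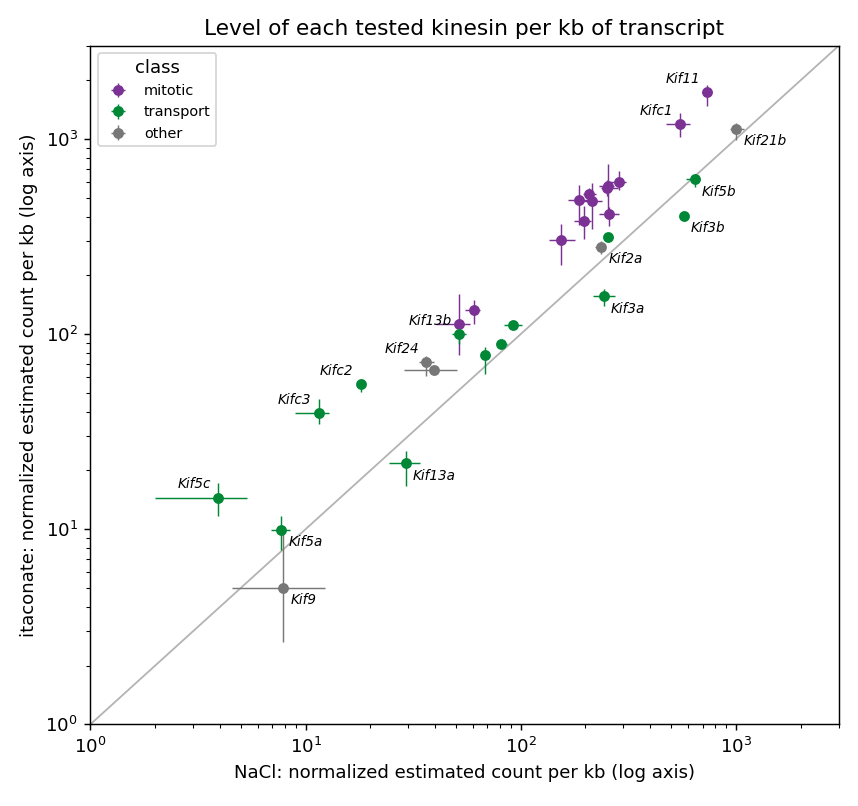
Each point is 1 tested kinesin, with its mean normalized estimated count per kb of transcript in the 3 NaCl libraries on the horizontal axis and in the 3 itaconate libraries on the vertical axis, both on log scales. Lines span the lowest to the highest library, colours give the class, and the grey diagonal marks equal levels. The mitotic kinesins (purple) lie above the diagonal at all levels, Kif3a and Kif3b lie below it, and Kif5c, Kifc2 and Kifc3 lie above it at the low end.

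Summed over the tested kinesins, the mitotic class made up 70.1%, 68.0% and 64.9% of the kinesin value per kb in itaconate replicates 1, 2 and 3 and 51.8%, 48.0% and 50.2% in NaCl replicates 1, 2 and 3. The lowest itaconate library lay above the highest NaCl library, with means of 67.7% ± 2.63 and 50.01% ± 1.88 (SD, n = 3; exact permutation test, two-sided, p = 0.1, the smallest that 3 against 3 allows). The transport class made up 16.5% to 20.5% with itaconate and 29.9% to 31.3% with NaCl, while its summed value per kb ran from 2008 to 2146 in the NaCl libraries and from 1966 to 2084 in the itaconate libraries, which overlap. The share was chosen as a measure after the gene values were seen.

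**Figure D4:**
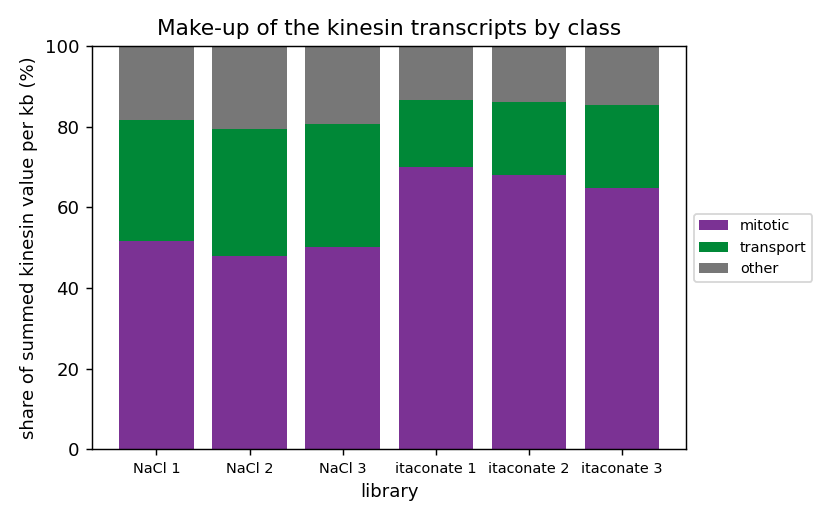
Each bar is 1 library, divided into the share of the summed kinesin value per kb, in percent, that came from mitotic (purple), transport (green) and other (grey) kinesins. The mitotic part lies between 48.0% and 51.8% in the NaCl libraries and between 64.9% and 70.1% in the itaconate libraries.

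To set close relatives side by side, ratios were taken within each library for 8 pairs of the same subfamily. The pairs were chosen after the values were seen, so their tests are descriptive. In kinesin-13 the log2 ratio of the mitotic Kif2c to Kif2a was 0.097, -0.062 and -0.48 with itaconate and -0.91, -1.24 and -0.98 with NaCl, a difference of 0.90. In kinesin-3 the ratio of the mitotic Kif14 to Kif16b differed by 0.99 and that of Kif13b to Kif13a by 1.38, in kinesin-4 that of Kif4 to Kif21b by 0.78, and in kinesin-1 that of Kif5c to Kif5b by 2.05. In these 5 pairs the treatments did not overlap (exact permutation p = 0.1, the smallest possible, and 0.16 after Benjamini-Hochberg adjustment over the 8 pairs). The ratios of Kif3a to Kif3b (-0.14), Kif18a to Kif18b (-0.083) and Kifc5b to Kifc1 (0.21) overlapped between the treatments, with adjusted exact permutation p of 0.4, 1 and 0.457.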

How the data were processed

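The values, as the authors deposited them, are 1 table of RSEM estimated counts after normalization, a signal of 0 or more, in 55401 entries with 55291 distinct gene symbols, all of which were kept. The submitters' processing notes name the mm10 build, STAR 2.7.0f and RSEM 1.3.0, while annotation, strand setting, size-factor tool and filters are not given there or in any other source used here. Columns were matched to samples by treatment code and replicate number. Of the values above 0, 80.0% to 82.2% were whole reads within 0.02 reads, so count models were not used. The 13180 entries whose mean reached 10 were fitted as log2(value + 1) in limma 3.58.1 (R 4.3.3), letting the variance follow intensity, with no covariate, two-sided, Benjamini-Hochberg adjusted at 0.05. Fold changes are on that scale and understate changes of low genes. Single ratios and shares were compared with exact permutation tests (scipy 1.17.1). The fit was tested on simulated data with independent libraries, the same dispersion for every gene and few changed genes. That setting is simpler than these data, so the simulation is no support for the calls made here. All kinesins that reached a mean of 10 are named, those from 1 to 10 with values only, and of the other lists up to 4 members with the smallest p and known direct partners. The members, classes and lists were chosen with earlier results of these data known. Alternatives were other pseudocounts (0.1 and 10), minimum means (none and 100), 3 rescalings, the replicate block, 2 variance models, removal of GC and length trends, each library left out and other class memberships. Positions and lengths come from GENCODE release M21 (GRCm38) and promoters from RefSeq.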

Additional observations from a re-analysis of the deposited data

How the results depend on the processing

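Of 524 values of single kinesins under the alternatives, 514 kept their side of the threshold, 5 lost a call, 5 gained one and 0 called values turned. The rescaling by median ratio had a factor of 1 in every library, so its values among the 514 only repeat the main fit. Of the 514, 512 kept their direction; the sign of 2 values with no call turned, Kif21b to -0.10 after removal of the GC and length trends and Kif5b to 0.0088 without itaconate replicate 3. The lost calls were those of Kif1c (4) and Kif7 (1). All 13 mitotic kinesins rose under every alternative that kept Kifc1 and Kifc5b apart, and 12 of 12 when these were summed. Their median ran from 0.98 to 1.23 with a library left out. With Kif2a counted as mitotic, not every member of the class rose, because Kif2a did not pass in the main fit. The class median was then 1.12. Kif3a and Kif3b fell under every alternative. With a mean of at least 100, 3 transport kinesins rose and their median was 0.155 (Kif5a, Kif5c and Kifc3 lie below that minimum). After removal of the GC and length trends, the transport median was 0.124, 3 partners of transport kinesins rose and 2 fell. With a library left out, the transport median ran from 0.202 to 0.333, the partners of transport kinesins from 3 to 5 risen and 0 to 2 fallen, dynein and dynactin from 2 to 3 fallen, and the regulators of G2/M promoters from 6 to 10 risen and 2 to 6 fallen. Without the intensity trend, 2 dynein and dynactin genes rose and 2 fell. The cause of these shifts was not tested. The mitotic share was higher with itaconate by 18.6 percentage points with merged exon lengths, against 17.7, an alternative chosen after seeing the data, and by 16.4 to 19.0 with a library left out.

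With the replicate number as a block (the replicate block), 22 kinesins rose and 2 fell, Kif1b (adjusted p = 0.0292 in limma) and Kif2a (0.0328) being the additions, and 3 partners of transport kinesins fell. Over all genes the block gave 2855 risen and 2781 fallen, against 2400 and 2341. Deviations of same-numbered libraries correlated at 0.15, 0.038 and 0.13, not all above 0.1, and each library correlated best with its own number. This is a hint from the data and not the design. Such correlations cannot settle whether the libraries were paired, and the labels do not say. Kif1b also passed without NaCl replicate 1 (0.0483) and Kif2a without itaconate replicate 3 (0.0414). With no filter 21277 entries were tested, 21 kinesins rose and 3 fell. Depth limits the kinesins with values under about 10, where single reads set the value.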
